A study of Homo sapiens with 9 samples.

Results

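The late phase of nutrient and oxygen deprivation was examined in PANC-1, an established cell line from a human pancreatic tumour, by comparing RNA sequencing libraries collected at day 14 with libraries collected at day 2. The samples were chosen by the time in their labels: 3 libraries at day 2 and 3 at day 14, or 6 of the 9 samples of the study, the other 3 being day 0. All 9 samples carry the same growth protocol, DMEM with glucose at 2.5 mM, fetal calf serum at 0.5% and amino acids at 20% of their usual level, and no further treatment. The labels name PANC-1 at every time, with no engineered allele and no added agent, and the oxygen level is not given in the sources used here. No culture without deprivation was sampled at day 2 or day 14, so time under deprivation, time in culture and any difference in handling between the collections cannot be told apart. The labels do not say that the replicates of a day were separate cultures, so the p-values measure the spread between the deposited replicates alone, part or all of which may come from handling.

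Cells that are short of oxygen stabilise the HIF transcription factors, which raise genes of glycolysis, pH control and blood vessel growth. Cells that are short of amino acids translate the transcription factor ATF4, which raises genes for making and importing amino acids. A shortage of sterols, as in medium poor in serum, releases the SREBP factors from the endoplasmic reticulum, and these raise the enzymes that make cholesterol and unsaturated fatty acids. YAP and TAZ are co-activators that enter the nucleus when cells spread or pull on their matrix, and bind DNA through TEAD factors.

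The deposited values are TPM, a length-corrected measure of each gene's share of its library, with the same sum in every library, and keep no sequencing depth, so depth is unknown here. Differences are given as day 14 minus day 2 of log2(TPM + 1), fitted with limma over the 13841 of 27800 symbols that reached 1 TPM in at least 3 of the 6 libraries, and a gene is said to have risen or fallen, or to be called, when its adjusted p was under 0.05. Each library had between 13440 and 13868 symbols at 1 TPM or more, and Pearson correlations of log2 values were 0.949 to 0.961 within day 2, 0.938 to 0.950 within day 14 and 0.917 to 0.945 between the days. Short RNA symbols (microRNAs, small nucleolar RNAs and the like) held 35 to 43.4% of all TPM at day 2 and 30 to 36.8% at day 14. The entry MIR6723 alone held 24.4 to 32.6% at day 2 and 16.2 to 24.6% at day 14, and a fall of such an entry raises every other gene's share. The median difference of all genes tested was 0.24, and it was 0.13 when TPM were rescaled without the short RNA symbols and 0.00 under median-ratio scaling.

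The identity markers of PANC-1 were present at both times. The simple epithelial keratin KRT8 stood at 468, 435 and 413 TPM at day 2 and at 433.5, 557 and 512 at day 14, and the intermediate filament gene VIM, which this line is known to co-express, at 1751, 1675 and 1619 and then 906, 1043 and 881. Of 10 fibroblast markers 2 reached the filter, COL1A1 and THY1, and the summed TPM of the list ran from 59.7 to 76.9 at day 2 and from 10.8 to 17.2 at day 14, almost all of it COL1A1. DCN was at 0 in all 6 libraries, and the highest value of LUM, PDGFRA, FAP, POSTN and PDPN in any of them was 0.181 TPM, for LUM. None of the 7 islet and none of the 7 hepatocyte markers reached the filter, and INS, GCG and SST were at 0 in all 6 libraries. Of 8 acinar markers CEL reached it, and of 12 blood and endothelial markers 2 did, among them CD68, a lysosomal gene that epithelial cells also express. The sums ran from 1.15 to 2.53 TPM at day 2 and 1.65 to 3.26 at day 14 for the acinar list, and from 27.3 to 46.4 and 45.9 to 58.4 for the blood and endothelial list.

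Between day 2 and day 14 many genes of sterol and fatty acid synthesis, and some of glycolysis, the antioxidant response and the metallothioneins, fell. The largest rises included CTGF, DKK1 and NPPC, which encode secreted proteins, and by smaller amounts some genes of DNA replication, ribosome assembly, folding and the proteasome rose. In limma, 2248 genes rose, 16.2% of those tested, and 400 fell, 2.89%. All 3 day 14 libraries lay above all 3 day 2 libraries in 5192 genes, 37.5%, and below them in 969, 7%. The split of calls followed the scaling: 84.9% of the calls were rises as reported, 37% under median-ratio scaling (399 rises and 679 falls), 47.2% under quantile normalization (562 and 629) and 70.6% without the short RNA symbols (1770 and 737). No called gene had the opposite sign under any of the 19 alternatives in which it was tested.

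**Figure D1:**
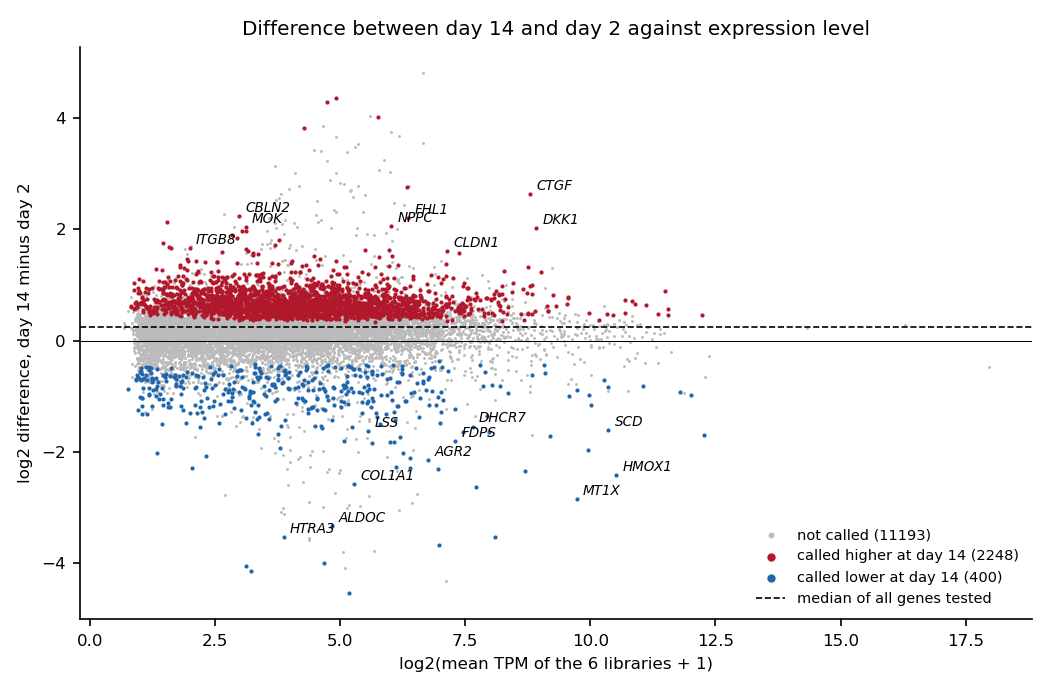
Difference between day 14 and day 2 on the log2(TPM + 1) scale (vertical axis) against the mean level of the 6 libraries (horizontal axis, log2), 1 point a gene. The 2248 genes called higher are red, the 400 called lower blue, and the dashed line is the median of all genes, 0.24; most rises are small, and the named falls reach below -3.

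Few calls held when day 2 replicate 1 or day 2 replicate 3 was left out, which leaves 2 libraries against 3. Without day 2 replicate 1, 10 of the rises and 12 of the falls were still called, and without day 2 replicate 3, 13 and 13. Without day 2 replicate 2, 1012 and 168 held, and without 1 of the day 14 libraries 449 to 866 rises and 139 to 213 falls. The 16 symbols called as reported and without each library in turn were the rises CBLN2, FHL1, IL1RAP, ITGB8, LPAR1, MOK and NPPC, and the falls COL1A1, ADAM19, the sterol enzymes DHCR7, FDPS, LSS and MVD, and the microRNA entries MIR1180, MIR154 and MIR24-2. In a fit of all 9 libraries, whose spread includes a day 0 library that stands apart (day 0 replicate 2, with 11363 symbols at 1 TPM), 40 rises and 36 falls held.

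**Figure D2:**
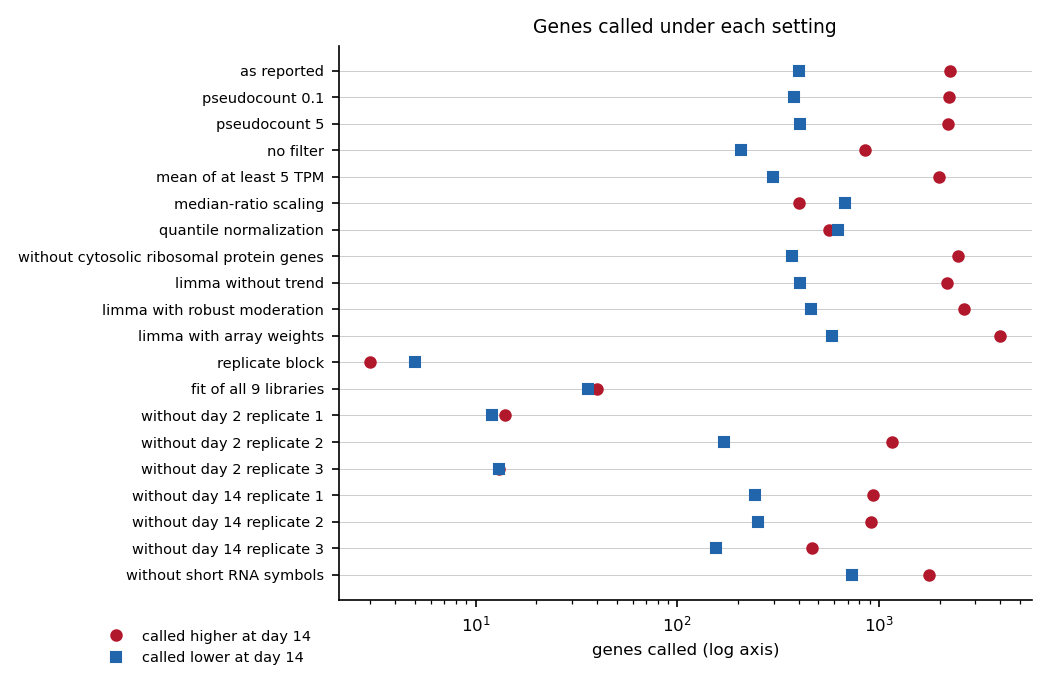
Number of genes called higher (red circles) and lower (blue squares) at day 14 against day 2 under each setting, on a log axis. Counts fall from 2248 and 400 as reported to 14 and 12 without day 2 replicate 1 and to 13 and 13 without day 2 replicate 3.

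The gene with the largest named rise was CTGF, a secreted matricellular protein that ties integrins and growth factors to the matrix and a much-used target of YAP and TAZ. It stood at 131, 81.6 and 169 TPM in day 2 replicates 1 to 3 and at 799.7, 661.5 and 825 at day 14, with day 0 at 84.7, 70.02 and 120.3. The lowest day 14 library lay far above the highest day 2 library, and day 0 and day 2 overlapped. The log2 difference was 2.63 ± 0.26 (SE), with a limma adjusted p of 0.0113, and without day 2 replicate 1 its adjusted p was 0.0625, against 0.00238 to 0.0625 over the alternatives. DKK1, a secreted antagonist of WNT receptors, stood at 232, 153 and 194 TPM at day 2 and at 742, 891 and 693.5 at day 14, a difference of 2.01 ± 0.18 (adjusted p = 0.00941). Its day 0 libraries, at 274, 259 and 266, lay between the 2 groups. DKK1 was called without day 2 replicate 1 but not without day 2 replicate 3.

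FHL1 and NPPC were higher at day 2 than at day 0 and rose further by day 14. FHL1, a LIM-domain protein of muscle and of the actin cytoskeleton, measured 30.8, 28.3 and 26.5 TPM at day 2 and 138, 141 and 124 at day 14, after 7.58, 2.76 and 8.38 at day 0. NPPC, which encodes C-type natriuretic peptide, measured 21.05, 25.35 and 26.1 and then 112, 108 and 90.1, after 0.739, 1.68 and 2.89. Neither gene's day 2 and day 14 libraries overlapped, and the differences were 2.19 ± 0.11 for FHL1 (limma adjusted p = 0.00131) and 2.05 ± 0.14 for NPPC (adjusted p = 0.00314). FAM84B followed the same course, at 5.69, 4.26 and 5.23 TPM and then 20.95, 16.6 and 23.5, a difference of 1.81 ± 0.17 (adjusted p = 0.00945). LCN2, a secreted iron-siderophore binder, was low throughout, at 0.833, 2.18 and 1.15 and then 5.02, 6.23 and 4.54 TPM (difference 1.42 ± 0.23, adjusted p = 0.0193). Without day 2 replicate 1 FAM84B was still called and LCN2 was not, and without day 2 replicate 3 neither was called. In the list of angiogenic and secreted factors, which holds NPPC, 1 of 13 tested genes rose (NPPC) and 2 fell (PDGFA and PDGFB). The list's median was -0.23, and of all genes 16.2% rose and 2.89% fell.

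In other leading rises the day 2 and day 0 means differed by less than 1 on the log2 scale. CBLN2, a secreted cerebellin best known at synapses, was at 1.88, 1.99 and 1.502 TPM at day 2 and 12.6, 11.8 and 11.85 at day 14, while day 0 was at 2.51, 1.07 and 1.025. The difference was 2.23 ± 0.12 (limma adjusted p = 0.00161), and CBLN2 and FHL1 were called under all 19 alternatives. ITGB8, the integrin beta chain that pairs with alpha V and activates latent TGF-beta, went from 0.955, 0.842 and 0.941 to 4.48, 5.24 and 5.48 TPM, with day 0 at 1.02, 0.367 and 0.9255. LPAR1, a receptor for lysophosphatidic acid, went from 2.44, 1.74 and 2.22 to 8.08, 9.17 and 7.93. IL1RAP, the co-receptor shared by interleukin-1 family receptors, went from 4.45, 3.73 and 4.36 to 13.85, 12.6 and 16.35. In each of these 4 genes every day 14 library lay above every day 2 library, by a margin larger than the spread within either day. The differences were 1.66 ± 0.12 for ITGB8 (adjusted p = 0.0048), 1.59 ± 0.14 for LPAR1 (adjusted p = 0.0089) and 1.55 ± 0.14 for IL1RAP (adjusted p = 0.00917).

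MOK and IL32 were lower at day 2 than at day 0 and rose again by day 14. At day 14 every MOK library lay above every day 0 library, while those of IL32 overlapped day 0. MOK, a kinase related to the MAP kinases, measured 10.4, 10.8 and 6.14 TPM at day 0, 2.303, 3.04 and 1.875 at day 2 and 14.4, 12.4 and 11.95 at day 14. The day 14 minus day 2 difference was 2.04 ± 0.16 (limma adjusted p = 0.00589). IL32, a cytokine made by epithelial cells and lymphocytes, measured 20.1, 17.5 and 10.25 TPM, then 2.15, 3.19 and 2.21, then 16.35, 13.3 and 9.06, a difference of 1.96 ± 0.23 (adjusted p = 0.0138). Unlike MOK, IL32 was not called without day 2 replicate 1 or without day 2 replicate 3. The remaining genes among the 15 largest named rises were SUSD2, HIST1H2AD, TGM2, CLDN1 and NUAK2, with differences from 1.57 for NUAK2 to 1.89 for SUSD2.

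**Figure D3:**
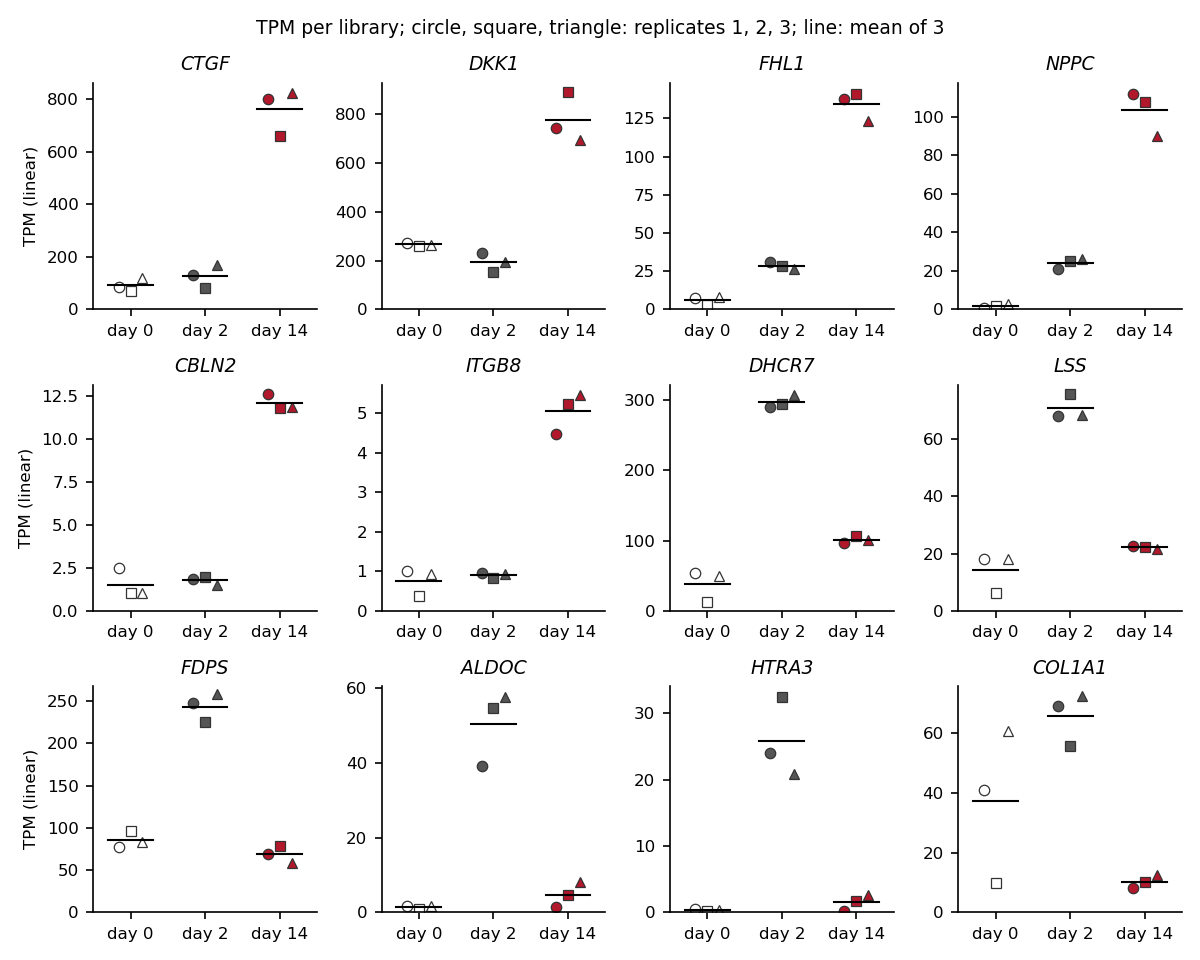
TPM in each library at day 0 (open symbols), day 2 (grey) and day 14 (red) for 12 genes, each panel on its own linear axis from 0; circles, squares and triangles are replicates 1, 2 and 3 and the line is the mean. In all 12 genes the day 2 and day 14 libraries do not overlap, from CTGF with 131, 81.6 and 169 and then 799.7, 661.5 and 825 TPM to COL1A1 with 69.2, 55.6 and 72.6 and then 8.29, 10.05 and 12.4.

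Among 16 measured YAP and TAZ targets, all tested, 5 rose (CTGF, CYR61, ANKRD1, CRIM1 and PTPN14) and none fell, against 16.2% and 2.89% of all genes, and the list's median difference was 0.44 against 0.24. CYR61, a matricellular relative of CTGF, stood at 258, 192 and 293 TPM at day 2 and at 617, 601.5 and 610.4 at day 14, with day 0 at 359, 170.3 and 392.5. Its 3 day 14 values lay within a narrow band above all day 0 and day 2 values (difference 1.32 ± 0.16, limma adjusted p = 0.0145). ANKRD1, a nuclear and sarcomeric ankyrin-repeat protein, rose from 12.1, 6.18 and 11.1 to 18.04, 19.85 and 18.03 TPM (0.91 ± 0.23, adjusted p = 0.0408). CRIM1 and PTPN14 rose by less, 0.59 and 0.56 on the log2 scale. All 5 were classed as appearing late, because their day 0 and day 2 means differed by less than 1 on the log2 scale. The median stayed above that of all genes under median-ratio scaling (0.17) and quantile normalization (0.19), where 2 were called. Of the 5, none was called without day 2 replicate 1, and CTGF alone without day 2 replicate 3.

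The promoter of CTGF is shown because the core letters that TEAD factors are known to bind recur in it. The sequence is the 250 bases before the gene start from RefSeq (listed there as CCN2), GRCh38.p14, chr6:131951373-131951622, minus strand, read 5′ to 3′ along the gene, with each CATTCC in capitals on either strand, where it reads GGAATG on this one.
CTGF: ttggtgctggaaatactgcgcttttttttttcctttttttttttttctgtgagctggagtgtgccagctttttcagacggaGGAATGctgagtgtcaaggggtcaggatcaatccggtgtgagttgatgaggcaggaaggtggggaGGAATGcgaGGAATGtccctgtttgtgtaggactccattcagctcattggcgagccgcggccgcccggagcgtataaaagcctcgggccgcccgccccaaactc
It holds 3 matches, starting 169, 104 and 95 bases before the gene start, none overlapping another. RefSeq promoters were matched for 3 of the 5 called targets, and all 3 held at least 1 CATTCC, as did 11.9% of 35116 promoters of the same length. A match is a description of the letters and not a site shown to be bound.

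Some adhesion and matrix genes rose and others fell. Of 12 tested integrins 4 rose and 1 fell, against 16.2% and 2.89% of all genes. ITGB8, ITGA2, ITGA3 and ITGA1 rose, and ITGA5, the fibronectin receptor's alpha chain, fell. ITGA2, a collagen receptor chain, went from 30.5, 24.7 and 27.7 TPM at day 2 to 77.3, 56.1 and 62.4 at day 14 (1.20 ± 0.15, limma adjusted p = 0.0145). ITGA5 went from 57.6, 67.8 and 55.8 to 27.1, 37.6 and 33.03 (-0.88 ± 0.15, adjusted p = 0.021). The integrin median was 0.21 and turned negative, -0.04 and -0.01, under median-ratio and quantile scaling, where 3 integrins, ITGB8 and ITGA2 among them, were still called higher. Of 25 tested collagen and matrix genes 3 rose (COL12A1 and the metalloproteinase inhibitors TIMP3 and TIMP2) and 5 fell (COL1A1, COL7A1, COL5A1, COL18A1 and the laminin chain LAMB3). That share of rises was below that of all genes, and that share of falls was above it. COL1A1, the main fibrillar collagen chain, fell from 69.2, 55.6 and 72.6 to 8.29, 10.05 and 12.4 TPM, a difference of -2.58 ± 0.17 (adjusted p = 0.00318), while its day 0 libraries were spread over 40.9, 9.88 and 60.8. COL7A1, which forms anchoring fibrils under epithelia, fell from 19.3, 25.25 and 18.2 to 2.795, 6.88 and 5.15 (-1.93 ± 0.28, adjusted p = 0.0168). ADAM19, a membrane metalloprotease, fell from 6.76, 7.58 and 9.29 to 2.17, 2.17 and 2.12 TPM (-1.48 ± 0.14, adjusted p = 0.00973). ITGB8 alone in the integrin list and COL1A1 alone in the matrix list were called without day 2 replicate 1, and the same held without day 2 replicate 3.

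The genes of cholesterol synthesis and uptake had the largest share of calls among the lists with at least 6 tested genes. Of 24 listed genes 23 were tested, 18 fell and none rose, against 2.89% and 16.2% of all genes, and 20 lay below day 2 without overlap, against 7%. The median difference was -1.01, against 0.24 for all genes. FDPS, which makes farnesyl diphosphate, stood at 248, 225 and 258 TPM at day 2 and at 69.6, 78.8 and 58.75 at day 14, below or within its day 0 values of 77.9, 95.97 and 83.1 (-1.81 ± 0.14, limma adjusted p = 0.0048). MVD, the decarboxylase upstream of it in the mevalonate pathway, stood at 92.4, 93.7 and 109 and then at 27.4, 29.5 and 24.6, with day 0 at 17.96, 34.75 and 21.2 (-1.82 ± 0.12, adjusted p = 0.00314). Both genes lay near their day 0 level at day 14.

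Later enzymes and the regulators of the pathway fell as well. LSS, which closes the sterol rings, measured 67.95, 75.4 and 68.4 TPM at day 2 and 22.7, 22.4 and 21.6 at day 14, with day 0 at 18.2, 6.13 and 18.2 (-1.62 ± 0.10, limma adjusted p = 0.00268). DHCR7, the last enzyme of the pathway, measured 291, 294 and 308 and then 96.4, 107 and 101, with day 0 at 53.99, 12.3 and 49.4 (-1.54 ± 0.10, adjusted p = 0.00268). In both genes each day 14 library lay between the day 0 and the day 2 libraries. INSIG1, which holds the SREBP complex in the endoplasmic reticulum when sterols are plentiful, fell from 96.4, 98.1 and 100 to 40.35, 28.2 and 40.45 TPM (-1.43 ± 0.16, adjusted p = 0.0128). SREBF2, the gene of the main sterol-sensing SREBP, fell least of the 18, from 107, 137.5 and 115 to 82.35, 81.8 and 74.7 TPM (-0.58 ± 0.12, adjusted p = 0.0308), and stayed above its day 0 values of 20.6, 4.56 and 18.05. STARD4, a cytosolic sterol carrier, fell from 34.7, 32.5 and 40.5 to 8.64, 12.9 and 13.4 TPM (-1.56 ± 0.18, adjusted p = 0.0138). Of the 18 falls 15 returned towards day 0 and 3 were classed as late, with or without day 0 replicate 2. Calls in the list numbered 20 under median-ratio scaling, 4 without day 2 replicate 1 (DHCR7, FDPS, LSS and MVD), 4 without day 2 replicate 3, and 6 in the fit of all 9 libraries.

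The promoters of FDPS, MVD and MSMO1, a sterol methyl oxidase that fell by 1.28 on the log2 scale (limma adjusted p = 0.0144), are shown because these 3 genes fell together and each holds several CCAAT boxes, the letters known to be bound by NF-Y, a partner of SREBP on sterol genes. Each is the 250 bases before the gene start from RefSeq, GRCh38.p14, 5′ to 3′ along the gene, with CCAAT on either strand (ATTGG on the other) in capitals: FDPS at chr1:155308616-155308865, plus strand, MVD at chr16:88663092-88663341, minus strand, and MSMO1 at chr4:165327419-165327668, plus strand.
FDPS: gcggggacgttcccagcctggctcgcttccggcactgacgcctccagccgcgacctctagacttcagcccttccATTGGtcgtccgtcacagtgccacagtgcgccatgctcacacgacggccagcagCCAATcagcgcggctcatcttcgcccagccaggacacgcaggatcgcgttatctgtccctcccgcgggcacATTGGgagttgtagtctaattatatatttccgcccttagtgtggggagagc
MVD: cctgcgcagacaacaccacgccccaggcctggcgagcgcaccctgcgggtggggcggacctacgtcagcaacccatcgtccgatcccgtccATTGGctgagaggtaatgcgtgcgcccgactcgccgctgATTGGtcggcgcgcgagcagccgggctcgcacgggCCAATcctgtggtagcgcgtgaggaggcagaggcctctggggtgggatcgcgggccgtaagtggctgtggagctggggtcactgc
MSMO1: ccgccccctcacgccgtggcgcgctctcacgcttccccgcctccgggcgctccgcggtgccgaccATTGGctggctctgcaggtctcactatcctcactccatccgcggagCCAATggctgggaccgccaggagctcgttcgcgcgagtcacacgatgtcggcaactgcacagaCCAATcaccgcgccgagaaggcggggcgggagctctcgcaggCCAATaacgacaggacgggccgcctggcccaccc
FDPS and MVD hold 3 matches each and MSMO1 holds 4. Promoters were matched for 14 of the 18 genes that fell, and 13 of the 14 (92.9%) held at least 1 CCAAT, as did 32% of all 35116 promoters of the same length. The share was not tested, and a match does not show binding.

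Fatty acid synthesis and desaturation moved the same way, with 8 of 13 tested genes falling, none rising and a median of -0.72. Of all genes 2.89% fell and 16.2% rose. SCD, the desaturase that makes oleate and needs oxygen to do so, stood at 2138, 1785 and 2007 TPM at day 2 and at 558, 611 and 782 at day 14, still well above day 0 at 107, 38.98 and 75.9 (-1.61 ± 0.16, limma adjusted p = 0.0111). FADS2, the first desaturase of polyunsaturated fatty acids, went from 206, 188 and 216 to 21.5, 54.96 and 53.9 TPM (-2.31 ± 0.35, adjusted p = 0.0183). FASN, the fatty acid synthase, went from 124.5, 163.5 and 121 to 81.6, 62.01 and 75.3 (-0.89 ± 0.16, adjusted p = 0.0239). The other falls were ME1, ACSS2, FADS1, SREBF1 and ACLY, between -1.56 and -0.597. None of the 8 was called without day 2 replicate 1 or without day 2 replicate 3. In fatty acid oxidation, the reverse pathway, none of 20 tested genes was called by limma (1 higher and 2 lower at an unadjusted p under 0.05), with a median of 0.05 (-0.22 under median-ratio scaling). The unadjusted threshold was passed by 4622 higher and 813 lower of all 13841 genes tested.

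Many hypoxia genes lay lower at day 14 than at day 2, and a minority of the list passed the test. Of 35 tested members 6 fell (ALDOC, HILPDA, PFKFB3, LOX, ENO2 and CA12) and none rose, against 2.89% and 16.2% of all genes. Of the 35, 20 lay below day 2 without overlap, against 7% of all genes. The median was -0.60. ALDOC, the brain-type aldolase, fell furthest, from 39.2, 54.65 and 57.8 TPM to 1.49, 4.701 and 8.16, with day 0 at 1.81, 0.864 and 1.78 (-3.33 ± 0.45, limma adjusted p = 0.0154). LOX, which cross-links collagen, fell by 1.19 on the log2 scale (adjusted p = 0.0149). VEGFA, the main vessel growth factor, stood at 175, 197.5 and 169 TPM at day 2 and 105, 144 and 137 at day 14, without overlap, and was not called (-0.50 ± 0.15, adjusted p = 0.0579), and its day 0 libraries were at 8.155, 4.14 and 10.5. NDRG1, a stress protein strongly raised by hypoxia, stood at 256, 343 and 242 and then at 46.9, 243 and 109 (-1.35 ± 0.54, adjusted p = 0.114). Its day 14 libraries were far apart, and replicate 2 overlapped day 2. Without that library NDRG1 was called lower (-1.93, adjusted p = 0.0424).

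Day 14 replicate 1 was the lowest of the 3 day 14 libraries in 33 of the 35 hypoxia genes (94.3%), and in 27.1% of all genes tested. CA9, the carbonic anhydrase that reports low oxygen, was at 2.66, 3.24 and 3.14 TPM at day 2 and at 0.107, 1.47 and 2.39 at day 14, so that its lowest value was again in that library. Without day 14 replicate 1 the hypoxia median was -0.36, with 7 members lower and 1 higher, the difference of NDRG1 was -0.76 and that of CA9 -0.47. Without day 2 replicate 1 or day 2 replicate 3 no hypoxia gene was called, and 14 were called lower without the short RNA symbols. The HIF subunits were not called: HIF1A stood at 30.55, 37 and 33.02 TPM and then 48.6, 34.2 and 23.3 (difference 0.02, and -0.25 under median-ratio scaling), and EPAS1 at 47.2, 49.1 and 41.6 and then 63.5, 52.7 and 43.3 (0.19, and -0.08 under that scaling).

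In glycolysis 7 of 21 tested genes fell and 1 rose, against 2.89% and 16.2% of all genes, with a median of -0.42. The falls were ALDOC, ENO2, GPI, GAPDH, PGK1, ALDOA and PFKL. GAPDH, often used as a reference gene, went from 5181, 5780 and 5237 TPM to 1793, 3366 and 3353, with day 0 at 2268, 1258 and 2412 (-0.98 ± 0.25, limma adjusted p = 0.0416). The rise was SLC16A1, the lactate and pyruvate carrier MCT1, by 0.597 (adjusted p = 0.0193). It was not called under median-ratio scaling, where 10 members were called lower. Day 14 replicate 1 was the lowest day 14 library in 19 of the 21, and without it 5 fell and the median was -0.30. No member was called without day 2 replicate 1 or without day 2 replicate 3.

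Several antioxidant genes that answer to NRF2, the transcription factor released by oxidants, fell from a high level at day 2. Of 19 tested members 8 fell and none rose, against 2.89% and 16.2% of all genes, 14 lay below day 2 without overlap, against 7%, and the median was -0.79. HMOX1, the inducible haem oxygenase, measured 2208, 2845 and 1981 TPM at day 2 and 178, 364 and 1243 at day 14, against 80.1, 47.7 and 81.9 at day 0 (-2.42 ± 0.65, limma adjusted p = 0.0448). Its 3 day 14 libraries were far apart, and all lay below day 2. HMOX1 kept its call in 8 of the 19 alternatives. It was not called under median-ratio or quantile scaling, nor without day 14 replicate 1 or day 14 replicate 2. GCLC and GCLM, the catalytic and modifier subunits of the enzyme that limits glutathione synthesis, fell as well: GCLC from 96.7, 78.7 and 68.7 to 22.1, 28.7 and 33.5 TPM (-1.51 ± 0.19, adjusted p = 0.0145) and GCLM by 1.83 on the log2 scale (adjusted p = 0.0303). OSGIN1 fell from 125, 179 and 102 to 17.9, 35.3 and 41.5 TPM (-2.11 ± 0.34, adjusted p = 0.0198), and ME1, TKT, SRXN1 and the cystine carrier SLC7A11 made up the 8. TXNRD1, thioredoxin reductase, stood at 985, 1090 and 1043 and then 367, 790 and 752 TPM and was not called (adjusted p = 0.0947). All 8 falls returned towards day 0, day 14 replicate 1 was the lowest day 14 library in 17 of 19 members, and without it 8 were called with a median of -0.52. None was called without day 2 replicate 1 or without day 2 replicate 3.

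Metallothioneins, small cysteine-rich proteins that bind zinc and copper and are induced through the factor MTF1, were lower at day 14 in most of the list. Of 10 tested genes of the list, which includes the zinc exporter SLC30A1, 6 fell and none rose, against 2.89% and 16.2% of all genes. The median was -1.41. MT1X measured 1225, 1850 and 1251 TPM at day 2 and 77.8, 199 and 482 at day 14, against 47.4, 254 and 62.7 at day 0 (-2.85 ± 0.61, limma adjusted p = 0.0299). MT2A, the most abundant, measured 6606, 9525 and 6388 and then 1795, 1838 and 3612 TPM, so that all 3 day 14 values lay below every day 0 value of 4174, 13100 and 3911 as well (-1.69 ± 0.31, adjusted p = 0.0233). MT1E and MT1F fell by 1.97 and 2.26 on the log2 scale. Reads of these near-identical genes can be assigned to a neighbour, so the values of single members are uncertain. Day 14 replicate 1 was the lowest day 14 library in 8 of 10, and no member was called without day 2 replicate 1 or day 2 replicate 3.

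The MT1X promoter is shown because it carries several copies of TGCNCNC, where N is any base. This is the pattern searched here for the core of the metal response element, which MTF1 is known to bind. The sequence is the 250 bases before the gene start from RefSeq, GRCh38.p14, chr16:56682220-56682469, plus strand, 5′ to 3′, with the pattern on either strand in capitals.
MT1X: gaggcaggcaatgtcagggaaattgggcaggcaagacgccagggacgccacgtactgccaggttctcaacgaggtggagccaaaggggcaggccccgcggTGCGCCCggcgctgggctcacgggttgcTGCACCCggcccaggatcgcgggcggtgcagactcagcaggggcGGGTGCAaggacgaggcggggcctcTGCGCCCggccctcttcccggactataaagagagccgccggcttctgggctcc
It holds 4 matches, none overlapping another. Promoters were matched for 4 of the 6 genes that fell and all 4 held the pattern, as did 49.1% of all promoters of the same length.

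ATF4, DDIT3 and ASNS, main genes of the amino acid starvation response, were not called between day 2 and day 14. Of 26 tested ATF4 targets and related genes 2 fell (NUPR1 and CBS) and none rose, against 2.89% and 16.2% of all genes. The median was 0.10 (-0.17 under median-ratio scaling). Amino acid transporters form a separate list, in which 2 of 13 tested genes rose (SLC36A4 and SLC7A1) and 1, SLC7A11, fell. None of the 13 was called under median-ratio scaling. ATF4 itself stood at 705, 775 and 734 TPM at day 2 and at 658, 769 and 671 at day 14, overlapping, and far above day 0 at 141, 151 and 153 (-0.08 ± 0.11, limma adjusted p = 0.614). DDIT3, the stress factor CHOP, stood at 318, 284 and 333 and then 318, 383 and 336 TPM, after 27.1, 40.4 and 25.6 at day 0 (0.15 ± 0.12, adjusted p = 0.384). ASNS, asparagine synthetase, stood at 175, 129.5 and 194 and then 159.6, 243 and 185 TPM, after 24.7, 40.1 and 37.7 (0.23, and -0.04 under median-ratio scaling, adjusted p = 0.436). In all 3 genes the day 14 libraries were well above day 0 and none was called between day 2 and day 14. NUPR1, a stress-induced chromatin protein, fell by 0.93 (adjusted p = 0.0242), and neither NUPR1 nor CBS was called without day 2 replicate 1. DDIT4, an inhibitor of mTORC1 raised by both stresses, measured 801, 1163 and 920.4 and then 753, 492 and 552 TPM, after 20.3, 9.72 and 19.45 (-0.69 ± 0.21, adjusted p = 0.0578). DDIT4 was called lower under median-ratio scaling (adjusted p = 0.0235), quantile normalization (0.0476), robust moderation (0.0409) and array weights (0.0189), without day 14 replicate 1 (0.0437) and without the short RNA symbols (0.00971). TXNIP, a glucose-responsive arrestin, varied over 7.46, 101.5 and 68.15 TPM at day 14 against 40.1, 23.4 and 26.9 at day 2 and was not called (0.37 ± 0.88, adjusted p = 0.779). This result depended on each day 14 library: without day 14 replicate 1, its lowest, TXNIP was called higher (1.47, adjusted p = 0.0395). Without day 14 replicate 2 the difference was -0.33 (adjusted p = 0.80), and without day 14 replicate 3 it was also negative.

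**Figure D4:**
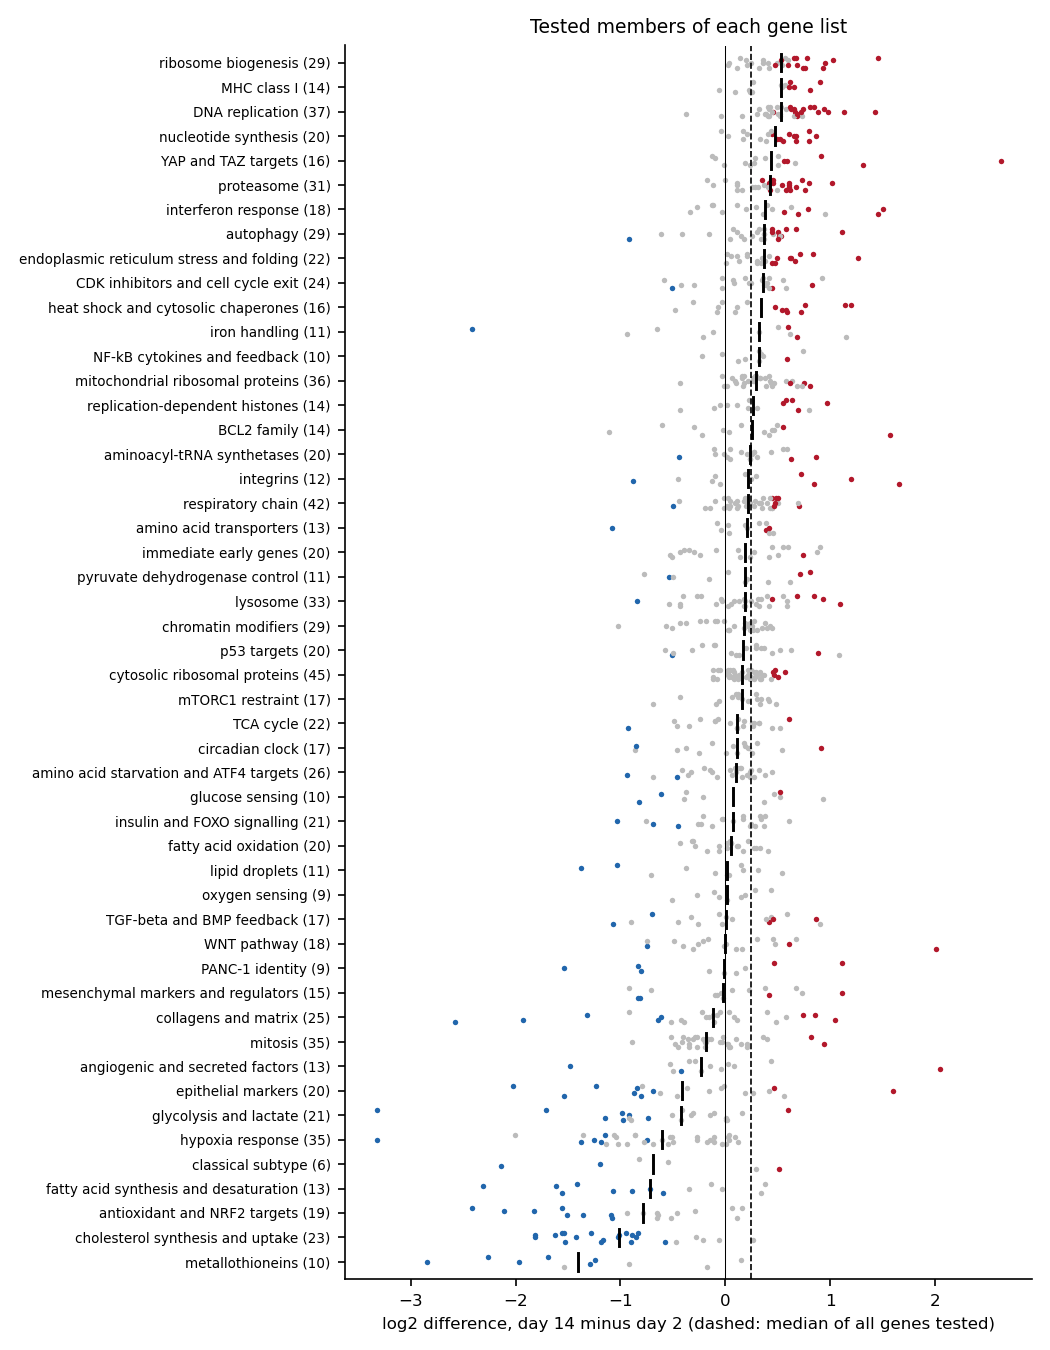
Each tested member of the lists with at least 6 tested genes is a point at its log2 difference, day 14 minus day 2 (red called higher, blue called lower, grey not called), and the black bar is the list's median; the number tested follows the list's name and the dashed line is the median of all genes, 0.24. Metallothioneins (-1.41) and cholesterol genes (-1.01) lie lowest, and ribosome biogenesis (0.54), MHC class I (0.54) and DNA replication (0.53) highest.

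Some genes of DNA replication, most of them lower at day 2 than at day 0, rose by day 14, and few mitotic genes were called. Of 37 tested replication genes 16 rose and none fell, against 16.2% and 2.89% of all genes. Of the 37, 23 lay above day 2 without overlap against 37.5% of all genes, and the median was 0.53. UHRF1, which copies DNA methylation at the fork, rose most, from 6.66, 9.43 and 7.45 TPM to 20.8, 19.02 and 29.2, after 66.7, 21.6 and 80.7 at day 0 (1.43 ± 0.20, limma adjusted p = 0.0154). GINS2 and MCM3, parts of the replicative helicase, rose by 1.14 and 0.98 (adjusted p = 0.0149 and 0.0243). Of the 16, 15 moved back towards day 0. Of 35 tested mitosis genes 2 rose (CKS1B and MELK), none fell, and the median was -0.18. MKI67, a marker of cycling cells, stood at 9.397, 9.77 and 8.78 TPM and then 4.265, 15.4 and 12.3, after 60.1, 7.105 and 52.8 at day 0 (difference 0.02, which was -0.22 under median-ratio scaling, adjusted p = 0.973). Day 14 replicate 1 was the lowest day 14 library in 34 of the 35 mitosis genes, and without it the mitosis median was 0.25, of the other sign, and 3 rose. CDKN1A, the cell cycle inhibitor p21, fell from 85.5, 81.9 and 96.7 to 63.4, 68.9 and 53.1 TPM (-0.51 ± 0.13, adjusted p = 0.0432), and E2F1, an activator of replication genes, rose by 0.83 (adjusted p = 0.0347). E2F1 was not called under median-ratio or quantile scaling, and neither gene was called when any 1 of the day 2 libraries was left out.

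Some genes of ribosome assembly and nucleotide synthesis also rose. Of 29 tested ribosome biogenesis genes 13 rose, against 16.2% of all genes, with a median of 0.54, led by NOP16 and RRP9, and of 20 nucleotide synthesis genes 11 rose, with a median of 0.47, among them PPAT, GART and PFAS of purine synthesis and CAD, UMPS and CTPS1 of pyrimidine synthesis. MYC, the transcription factor that drives many of these genes, went from 56.8, 62.5 and 61.2 TPM at day 2 to 128, 80.9 and 99.7 at day 14, after 30.9, 10.6 and 30.3 at day 0 (0.74 ± 0.17, limma adjusted p = 0.0348). MYC was not called under median-ratio or quantile scaling (adjusted p = 0.0937 and 0.062), nor without any 1 of the day 2 libraries (0.0615 to 0.128) or day 14 replicate 3 (0.0769). No member of either list fell. The cytosolic ribosomal proteins themselves had 5 rises among 45 and a median of 0.16, below that of all genes and negative, -0.11, under median-ratio scaling. Under that scaling 4 replication, 3 biogenesis and 1 nucleotide synthesis gene were still called higher and the 3 medians were 0.32, 0.26 and 0.20. None of the calls in these 3 lists held without day 2 replicate 1 or without day 2 replicate 3, and without day 14 replicate 1 there were 10, 7 and 3. That library was the highest of the 3 at day 14 in 27 of the 29 biogenesis genes (93.1%), 14 of the 20 nucleotide synthesis genes (70%) and 36 of the 45 cytosolic ribosomal proteins (80%), against 51.7% of all genes tested, and without it the biogenesis median was 0.355.

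Some genes of protein folding and breakdown rose, most of them by small amounts. Of 22 tested genes of endoplasmic reticulum stress and folding 9 rose, of 16 cytosolic chaperone genes 8 rose, and of 31 proteasome genes 18 rose, with medians of 0.37, 0.34 and 0.43 and no fall in the 3 lists, against 16.2% of all genes called higher, 2.89% lower and a median of 0.24. HSPH1, a large chaperone that recharges HSP70, went from 18.3, 16.7 and 17.7 TPM to 41.4, 38.4 and 44.9 (1.20 ± 0.11, limma adjusted p = 0.00941). SDF2L1 and CALR, luminal chaperones of the endoplasmic reticulum, rose by 1.27 and 0.84. PSMB3, a core subunit of the proteasome, rose most in its list, from 64.7, 75.03 and 68.5 to 169, 127 and 132 TPM (1.02 ± 0.14, adjusted p = 0.0154). Under median-ratio scaling the medians were 0.10, 0.07 and 0.16, with 1, 2 and 3 called, while that of all genes was 0.00. None of the calls held without day 2 replicate 1 or without day 2 replicate 3.

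Some genes of autophagy, antigen presentation and the interferon response rose as well. In autophagy 10 of 29 tested genes rose and 1 fell, against 16.2% and 2.89% of all genes. The median was 0.37, against 0.24 for all genes. ATG101 led the rises (1.12 ± 0.20, limma adjusted p = 0.0236). ULK1, the kinase that starts the process, fell from 161, 159.6 and 182 to 67.05, 115 and 89.03 TPM (-0.92 ± 0.20, adjusted p = 0.0304). Under median-ratio scaling 1 autophagy gene was called higher and 3 lower. In MHC class I presentation 5 of 14 rose (TAP2, HLA-E, HLA-B, HLA-C and PSMB10) with a median of 0.54, and none was called under median-ratio scaling. HLA genes are near copies of each other, so their single values are uncertain. In the interferon response 5 of 18 rose, with a median of 0.38. ISG15 and IFIT1, both induced by interferon, rose by 1.503 and 1.46 (adjusted p = 0.0166 and 0.0303), and DDX58, IFITM3 and OAS3 by less. In this list 3 genes were called higher under median-ratio scaling. In the BCL2 family 2 of 14 tested genes rose and none fell, a share of rises near that of all genes. BCL2L1, which encodes BCL-XL, rose from 90.99, 80.3 and 76.9 to 306, 212 and 231 TPM (1.57 ± 0.16, adjusted p = 0.0118). BAK1 rose by 0.55 (adjusted p = 0.0356). None of these calls held without day 2 replicate 1 or without day 2 replicate 3.

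Epithelial markers fell more often than they rose. Of 20 tested, 7 fell and 2 rose, against 2.89% and 16.2% of all genes, with a median of -0.41. ELF3, an epithelial ETS factor, went from 112, 133 and 117.5 TPM at day 2 to 20.1, 40.02 and 29.8 at day 14, after 11.8, 11.2 and 22.1 at day 0 (-2.03 ± 0.24, limma adjusted p = 0.0138). CDH1, which encodes E-cadherin, went from 35.5, 27.4 and 34.1 to 8.24, 11.6 and 11.9 TPM (-1.53 ± 0.17, adjusted p = 0.013). CDH2, which encodes N-cadherin, went the other way, from 8.54, 9.73 and 8.796 to 22.9, 23.8 and 16.2 (1.12 ± 0.17, adjusted p = 0.018). VIM, a mesenchymal marker, fell (-0.84 ± 0.11, adjusted p = 0.0149), as did SNAI1, a repressor of CDH1 (-0.82 ± 0.21, adjusted p = 0.0408), and TGFB1 rose by 0.42, so 2 of 15 mesenchymal genes rose and 2 fell. TGFB1 was not called under median-ratio or quantile scaling. CLDN1, a tight junction claudin, rose from 78.9, 50.01 and 79.3 to 216, 231 and 181.5 TPM (1.60 ± 0.20, adjusted p = 0.0145), while CLDN3 and CLDN7 fell by 1.24 and 0.84.

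Of 6 tested genes of the classical pancreatic tumour subtype 1 rose and 2 fell, against 16.2% and 2.89% of all genes. The median was -0.69, and under median-ratio scaling none was called higher and 3 lower. AGR2, a disulfide isomerase of mucus-secreting cells, went from 207, 135 and 186 TPM at day 2 to 34.7, 51.2 and 31.8 at day 14, below every day 0 value (-2.14 ± 0.23, limma adjusted p = 0.0123). TFF3, a trefoil peptide, fell to under 1 TPM, from 2.545, 3.902 and 3.24 to 0.865, 0.9675 and 0.673 (-1.20 ± 0.16, adjusted p = 0.0154). GATA6, the transcription factor that marks the classical subtype, rose from 12.4, 11.9 and 12.5 to 15.95, 19.98 and 18.1 TPM (0.51 ± 0.12, adjusted p = 0.0339) but was not called under median-ratio or quantile scaling. KRT19 fell from 344.5, 398 and 261 to 200.1, 193 and 174 TPM and KRT18, the keratin that pairs with KRT8, rose from 373, 383 and 334 to 482, 565 and 466 (0.47 ± 0.12, adjusted p = 0.0406). KRT18 was not called under median-ratio or quantile scaling, nor without the short RNA symbols. Of the epithelial, mesenchymal and classical calls none held without day 2 replicate 1 or without day 2 replicate 3. In a bulk sample fewer cells of a kind and less RNA per cell cannot be told apart.

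HTRA3, a secreted serine protease, was high at day 2 and low at the other times, at 24.1, 32.5 and 20.9 TPM there, 0.213, 1.75 and 2.61 at day 14 and 0.443, 0.153 and 0.4065 at day 0 (-3.53 ± 0.40, limma adjusted p = 0.013). CP, the copper-carrying ferroxidase ceruloplasmin, followed the same course at a lower level, at 8.701, 4.51 and 4.34 TPM, then 0.217, 0.576 and 0.294, after 1.41, 0.4255 and 0.767 (-2.28 ± 0.26, adjusted p = 0.013). S100P, a calcium-binding protein, was at 8.56, 7.59 and 4.76 and then at 0, 2.525 and 0.778 TPM (-2.08 ± 0.45, adjusted p = 0.0309). In each of the 3 genes the day 14 libraries lay below all day 2 libraries. CP was called without day 2 replicate 1 (adjusted p = 0.0359) but not without day 2 replicate 3 (adjusted p = 0.0565), and HTRA3 and S100P were called in neither setting.

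In the respiratory chain the share of rises was near that of all genes. Of 42 tested genes 6 rose and 1, UQCRC1, fell, against 16.2% and 2.89%, with a median of 0.21, and of 36 mitochondrial ribosomal proteins 3 rose, with a median of 0.30. Day 14 replicate 1 was the highest day 14 library in 37 of the 42 (88.1%) and 31 of the 36 (86.1%), and without it no respiratory chain gene and 2 of these ribosomal proteins were called. Under median-ratio scaling no respiratory chain gene was called higher, 2 were called lower and the median was -0.05. PCK2, which makes phosphoenolpyruvate from oxaloacetate in the mitochondrion, fell by 0.93 on the log2 scale (limma adjusted p = 0.0368). In the lists of mTORC1 restraint, chromatin modifiers and oxygen sensing no gene of 17, 29 and 9 tested was called by limma, and 4 higher and 1 lower, 7 higher and 4 lower and 1 higher and 1 lower had an unadjusted p under 0.05. Of all 13841 genes tested, 4622 higher and 813 lower passed that unadjusted threshold.

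The called genes were also set against day 0. These courses use the same day 2 libraries as the test and are a description. A called gene was said to return towards the start when its day 2 mean had moved by at least 1 on the log2 scale from day 0 and its day 14 mean lay nearer to day 0, and to appear late when day 2 and day 0 differed by less than 1. The late class does not look at direction, so it also holds genes that moved by less than 1 and then moved back. BAK1, in the late class, changed by -0.55 from day 0 to day 2 and by 0.55 from day 2 to day 14. Of the 2248 rises 1749 (77.8%) were classed as late, 348 (15.5%) as returning and 149 (6.63%) as continuing an earlier rise, while of the 400 falls 169 (42.2%) were classed as late, 224 (56%) as returning and 6 (1.5%) as continuing. Without day 0 replicate 2 these numbers were 1739, 428 and 81 for the rises and 193, 196 and 11 for the falls. The other called genes, 2 rises and 1 fall, lay farther from day 0 on its other side than they had at day 2. Among all tested genes that lay higher at day 14, 79% were classed as late and 9.61% as returning, and among those that lay lower 61.9% and 33.8%. The called cholesterol, antioxidant and replication genes were mostly of the returning kind and the YAP and TAZ targets of the late kind.

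**Figure D5:**
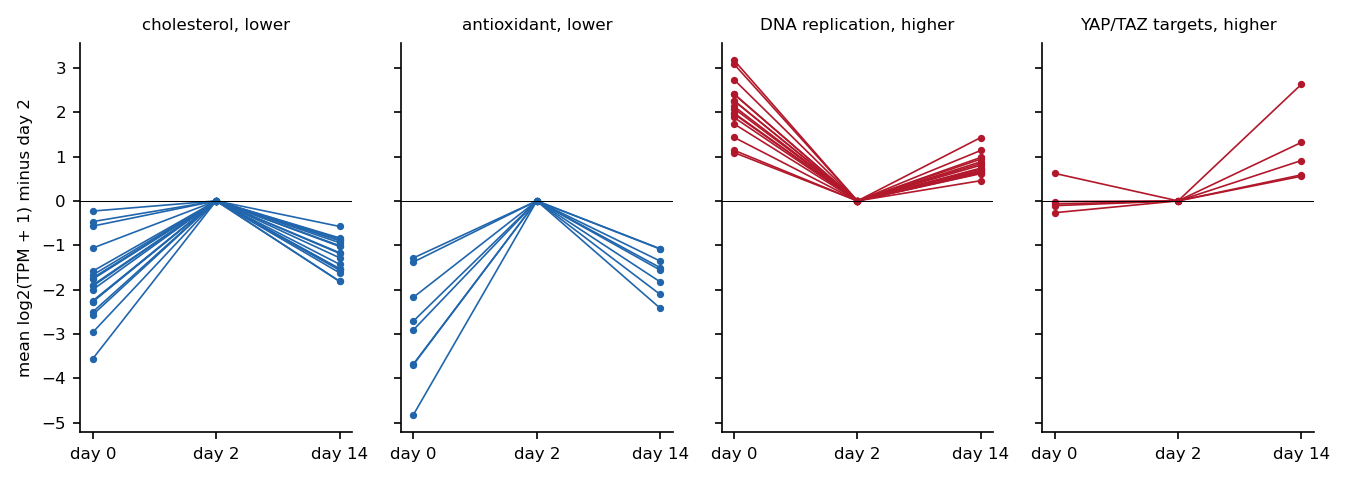
Mean log2(TPM + 1) at day 0, day 2 and day 14 minus the day 2 mean, 1 line a called gene, for 18 cholesterol and 8 antioxidant genes called lower (blue) and 16 DNA replication genes and 5 YAP and TAZ targets called higher (red); day 0 replicate 2 is left out of the day 0 mean. The first 3 groups are bent at day 2 with day 14 between day 2 and day 0 for most genes, and the fourth is flat from day 0 to day 2 for 4 of 5 genes and rises afterwards.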

How the data were processed

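RNA of 9 PANC-1 samples was extracted with a Qiagen kit, and a company built the libraries, per the labels' protocols. The values deposited by the authors are TPM by symbol in a single table, from Salmon with hg19 as the named build (per the submitters' processing notes). The version, annotation and strand setting are not given in the sources used here. Each column was matched to a sample by the day and number in its name.

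From the deposited TPM, log2(TPM + 1) was computed and day 14 was compared with day 2 over 6 libraries with limma 3.58.1 in R 4.3.3 (intensity trend, two-sided, Benjamini-Hochberg over 13841 genes at 0.05). A fold change on this scale understates the change of low genes. The fit was tested on simulated data. No 2 libraries held equal nonzero values for any symbol. The members and the 56 gene lists were chosen with earlier results of these data known, and a gene can be in more than 1 list.

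Named genes were the 15 largest called rises and falls without overlap and with at least 5 TPM in the higher group (unnamed, microRNA, small nucleolar RNA, antisense and open reading frame symbols left out), up to 2 called rises and 2 called falls per list, up to 5 per course class, and a set fixed by name. Not all are printed, and some items are not reported here. The list members given beyond these, ADAM19 and IL1RAP, and the microRNA entries were named after their values were seen, and so were the promoters shown. Alternatives were pseudocounts of 0.1 and 5, other filters and scalings, other limma settings, a replicate block, all 9 libraries and each library left out. Rescaling without short RNA symbols was chosen after seeing the data. Promoters are from RefSeq (GRCh38.p14) and were matched by symbol or older symbol.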

Additional observations from a re-analysis of the deposited data

How the results depend on the processing

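As reported, 2248 genes were called higher and 400 lower. Without the filter these were 853 and 207, under median-ratio scaling 399 and 679, under quantile normalization 562 and 629, and in the fit of all 9 libraries 40 and 36. Array weights gave 4001 higher, and leaving out the short RNA symbols gave 737 lower. Leaving out 1 library gave 13 to 1165 higher and 12 to 251 lower, with 1 library fewer in the fit. With a replicate block 3 genes were called higher (CBLN2, CTGF and FHL1) and 5 lower. The labels do not say whether same-numbered samples belong together. Deviations of same-numbered day 2 and day 14 libraries from their day means correlated at -0.05, -0.10 and -0.04. With 3 libraries a day these values cannot decide whether the samples were paired. Genes that were not called had differences of the other sign in some settings. Under median-ratio and quantile scaling these were ECHS1 (-0.10 and -0.039), HIF1A (-0.25 and -0.25), EPAS1 (-0.077 and -0.0501), MKI67 (-0.22 and -0.19) and, under the first, ASNS (-0.039). Without the short RNA symbols they were HIF1A (-0.12) and MKI67 (-0.11), with array weights HIF1A (-0.12), and without ribosomal protein genes AREG (0.0095). With each library left out in turn the differences ran from -0.39 to 0.19 for AREG, from -0.0036 to 0.35 for CEL, from -0.24 to 0.28 for HIF1A, from -0.33 to 1.47 for TXNIP and from -0.30 to 0.52 for MKI67. The cause of these changes was not tested. Depth is unknown in TPM, so no counting error can be given, and low genes are less certain than their standard errors show.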

Other observations

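The microRNA entries of 1 genomic cluster fell together: MIR23A stood at 221, 694 and 599 TPM at day 2 and at 17.7, 45.7 and 68.8 at day 14, MIR27A at 200.4, 526 and 369.9 and then at 51.9, 44.6 and 67.3, and MIR24-2 at 142, 278 and 284 and then at 17.7, 15.2 and 17.2. Every day 14 library lay below every day 2 library in all 3 entries, and limma adjusted p were 0.0206, 0.0151 and 0.0048. These entries are short, so few reads give a large TPM, and reads from a shared precursor cannot be told from mature microRNAs. MIR24-2 was called without each library in turn. MIR23A was not called without day 2 replicate 1 or without day 2 replicate 3, and MIR27A was not called without day 2 replicate 3. In the fit of all 9 libraries MIR23A and MIR27A were not called.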
